A study of Mus musculus with 18 samples.

Results

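The 9 genes described here encode transcription factors of foregut and pancreatic duct epithelium: Foxa1, Foxa2, Foxa3, Hnf4a, Gata6, Pdx1, Sox9, Klf5 and Elf3. They were taken by symbol from the 35642 rows of a gene expression table, and all 9 were present. Expression was measured in 18 RNA libraries from 2 lines of mouse pancreatic tumour cells, 1151 and 2838, with 3 libraries in each of 6 groups, and the study title concerns mitochondrial calcium and epithelial plasticity. The unit was TPM, a transcript abundance that is corrected for transcript length and scaled to a fixed total per library. The lines came from KPCY mice, in which KrasLSL-G12D, Trp53 LSL-R172H and a yellow fluorescent reporter (R26LSL-Yfp) are switched on by Cre recombinase under the promoter of Pdx1, which is itself among the 9 genes. All groups carried those alleles and were untreated cultures in DMEM with serum.

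In line 1151, floxed Mcu had been deleted by Cre, and the cells then received an empty vector (1151 KO) or MCU (1151 MCU), both grown in puromycin. Mcu encodes the pore of the mitochondrial calcium uniporter. In line 2838 there were CRISPR knockout clones 17 and 42 (KO17, KO42) and wild-type clones 15 and 22 with an empty vector (WT15, WT22). The label of the knockout clones names no vector. Each 2838 group was 1 clone and each 1151 group 1 labelled cell population. No label says that the 3 libraries of a group were separate cultures, so p-values between libraries measure only the spread between those libraries, which may be technical. Line 1151 was batch 1 and line 2838 batch 2, so line and batch cannot be told apart and levels were not tested between lines.

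These factors act in a layered network. FOXA and GATA factors bind closed chromatin and open it in early endoderm, and Pdx1 and Sox9 mark the cells that form the pancreas. Hnf4a and Elf3 maintain differentiated epithelium of liver, gut and ducts, and Klf5 acts in proliferating gut epithelium. Sox9 stays on in adult ducts, whereas Pdx1 is best known in adult islet beta cells. In human pancreatic cancer, GATA6 and HNF4A are known as markers of the classical, gland-forming subtype.

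RNA of Mcu itself did not follow the labels. It averaged 15.0 ± 1.63 TPM in 1151 KO and 14.3 ± 1.06 TPM in 1151 MCU, then 119 ± 4.79 TPM in KO17 and 11.4 ± 0.888 TPM in KO42, against 75.2 ± 6.44 TPM in WT15 and 83.3 ± 20.8 TPM in WT22 (SD, n = 3 each). The labels do not say whether the MCU given back has the mouse sequence or which change the CRISPR clones carry, so these values do not check the labels, and all groups are named as labelled. WT22 replicate 3 stood apart: it had 10760 genes at 1 TPM or more, against 11207 to 11507 in the other 17 libraries, and its upper quartile over genes was 3.73 TPM, whereas replicates 1 and 2 of WT22 had 7.54 and 7.45 TPM. Results of line 2838 are given with and without it. Simple epithelial genes were abundant in every library, from 1537 to 2735 TPM for Krt8 and from 152 to 576 TPM for Cdh1, while Epcam stayed at or under 1.67 TPM. All 7 fibroblast and all 7 endocrine marker genes were under 1 TPM in every library, and their sums ran from 0.203 to 1.05 TPM and from 0 to 0.0745 TPM. In bulk RNA, fewer cells with a gene and less RNA of it per cell cannot be told apart.

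The first question was how the factors differed between the libraries labelled 1151 KO and 1151 MCU. Elf3, Foxa3, Pdx1 and Hnf4a were lower in 1151 KO than in 1151 MCU, Sox9, Klf5 and Gata6 were higher, and Foxa1 and Foxa2 did not pass the test. The test was limma on log2(TPM + 1) over the 6 libraries, with Benjamini-Hochberg adjustment over 11630 genes and a call at an adjusted p under 0.05. On that scale, differences of low genes are understated. Of the 9 genes 4 were called lower, where 27% of all genes tested were, and 3 were called higher, where 34% were. With 61% of all genes called in either direction, the count of 7 in 9 is not a result about these genes as a set.

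Elf3, an ETS factor of simple and secretory epithelia, had the largest change of the 9. It stood at 6.72, 6.39 and 6.35 TPM in 1151 KO, against 28.5, 26.4 and 25.2 TPM in 1151 MCU. The log2 difference was -1.89 (SE 0.073, limma adjusted p = 2.97e-06). Every KO library was far below every MCU library, and the libraries of a group lay close together.

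Foxa3 is the forkhead factor of liver and gut endoderm. It had 1.23, 2.17 and 1.61 TPM in 1151 KO, against 4.95, 5.05 and 5.37 TPM in 1151 MCU, a log2 difference of -1.21 (SE 0.14, limma adjusted p = 0.000352). Pdx1, the homeodomain factor of the early pancreas, had 21.2, 21.5 and 23.6 TPM in 1151 KO, against 43.8, 43.8 and 42.8 TPM in 1151 MCU. Its log2 difference was -0.95 (SE 0.062, limma adjusted p = 2.58e-05). Neither gene had overlapping groups.

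Hnf4a, a nuclear receptor that drives liver and gut genes, was the most abundant of the 9 in both groups. It had 155, 172 and 212 TPM in 1151 KO, against 318, 315 and 287 TPM in 1151 MCU. The log2 difference was -0.78 (SE 0.12, limma adjusted p = 0.00108), and the groups did not overlap.

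Because these 4 genes fell together, the bases before their RefSeq start sites are shown (GRCm38.p6, 5′ to 3′ on the strand of the gene). Hnf4a has 2 such starts. In each, 250 bases before the start were searched on both strands, and matches are in capitals. The words searched were AGATAA for the GATA factors, CAAAGT for HNF4 and TAATTA for PDX1. For the FOXA factors the word TGTTTAC was searched, as well as the related word TGTTTGC, a further related word TGTTTGT and the last related word TGTTTAT. Stretches that GENCODE counts as exon are left out except for at most 10 bases, so some runs are shorter than 250.
Hnf4a upstream start, chr2:163506607-163506817, plus strand: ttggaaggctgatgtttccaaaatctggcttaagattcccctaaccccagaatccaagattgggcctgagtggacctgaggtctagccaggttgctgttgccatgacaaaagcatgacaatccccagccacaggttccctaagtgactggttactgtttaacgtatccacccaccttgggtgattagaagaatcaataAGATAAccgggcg
Hnf4a downstream start, chr2:163546933-163547154, plus strand: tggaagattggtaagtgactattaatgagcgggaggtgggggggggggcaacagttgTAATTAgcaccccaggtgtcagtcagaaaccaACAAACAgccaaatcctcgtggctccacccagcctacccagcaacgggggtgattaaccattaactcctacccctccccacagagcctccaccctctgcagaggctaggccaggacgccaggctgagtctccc
Pdx1, chr5:147269847-147269968, plus strand: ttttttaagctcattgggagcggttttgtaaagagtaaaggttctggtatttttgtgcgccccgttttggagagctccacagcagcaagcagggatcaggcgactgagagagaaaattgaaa
Foxa3, chr7:19023540-19023789, minus strand: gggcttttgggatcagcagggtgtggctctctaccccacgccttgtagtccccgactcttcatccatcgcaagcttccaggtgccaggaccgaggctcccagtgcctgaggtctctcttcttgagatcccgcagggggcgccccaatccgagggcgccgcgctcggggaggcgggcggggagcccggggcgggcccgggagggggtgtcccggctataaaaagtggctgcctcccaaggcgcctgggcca
Elf3, chr1:135258559-135258722, minus strand: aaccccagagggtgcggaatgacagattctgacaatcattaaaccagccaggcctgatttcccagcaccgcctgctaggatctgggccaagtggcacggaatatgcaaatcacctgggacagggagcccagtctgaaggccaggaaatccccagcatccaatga

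Among these 4 genes, the Hnf4a windows alone held any of the words searched. The upstream window had AGATAA 52 bases before the start, a word found in 9.99% of the 32851 promoter windows of this length in the RefSeq table. The downstream window had TAATTA 165 bases before the start (4.84% of windows hold it) and a FOXA word 133 bases before it (15.7%). The windows of Elf3, Pdx1 and Foxa3 held none of them over the full 250 bases. Words were also found at Foxa1 and Foxa2, which were not called in 1151 and are not shown: a FOXA word and CAAAGT in windows of both (12.6% of all windows hold CAAAGT), and AGATAA in a window of Foxa2. The search describes letters in these windows and says nothing about binding, and the deposited TPM do not separate the 2 starts of Hnf4a.

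Sox9, the HMG-box factor of pancreatic progenitors and ducts, moved the other way. It had 22.8, 22.8 and 20.5 TPM in 1151 KO, against 11.6, 11.8 and 11.6 TPM in 1151 MCU, a log2 difference of 0.86 (SE 0.069, limma adjusted p = 6.27e-05). Klf5, a zinc-finger factor of proliferating gut epithelium, had 54.6, 52.6 and 47.6 TPM in 1151 KO, against 38.8, 40.2 and 38.9 TPM in 1151 MCU. Its log2 difference was 0.38 (SE 0.066, limma adjusted p = 0.00213). All KO libraries were above all MCU libraries for both genes. With the spread taken from all 18 libraries, the calls of Klf5 (adjusted p = 0.147) and Hnf4a (0.204) ended.

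Gata6, the zinc-finger factor that with Gata4 builds the mouse pancreas, had 34.7, 38.9 and 35.8 TPM in 1151 KO, against 30.8, 33.5 and 30.5 TPM in 1151 MCU. The groups did not overlap, but the log2 difference was only 0.20 (SE 0.069, limma adjusted p = 0.0412). That call ended with median-of-ratios scaling (adjusted p = 0.152), with quantile normalization (0.144) and without KO replicate 2 (0.134), among others. Foxa2, the main forkhead factor of endoderm, had 70.9, 80.9 and 79.9 TPM in 1151 KO, against 83.9, 84.7 and 78.9 TPM in 1151 MCU (log2 difference -0.10, SE 0.068, limma adjusted p = 0.261), with overlapping groups. Foxa1, its close relative, was near the floor of 1 TPM at 1.46, 1.44 and 1.38 TPM in 1151 KO, against 1.10, 1.04 and 0.642 TPM in 1151 MCU (log2 difference 0.34, SE 0.13, limma adjusted p = 0.0572). Its groups did not overlap, as for 67.2% of all genes tested, and it was called with no variance trend (adjusted p = 0.0276) and when each library was centred per chromosome (0.0154).

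**Figure D1:**
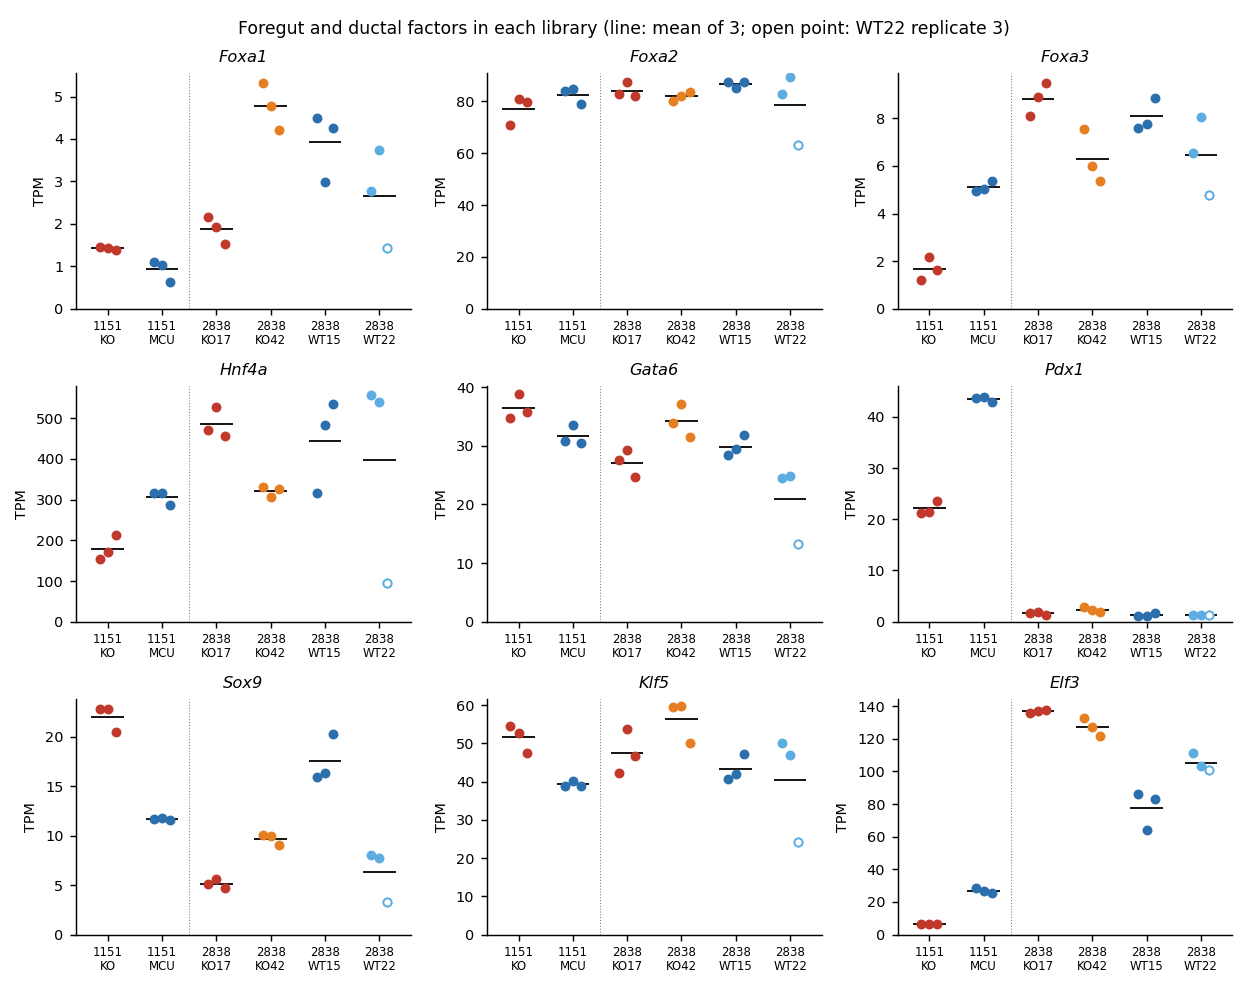
TPM of each of the 9 factors (y axis, from 0) in every library of the 6 groups (x axis); points are libraries, the black line is the mean of 3, and the open point is WT22 replicate 3. Elf3 averages 6.48 TPM in 1151 KO and is at 122 TPM or more in KO17 and KO42, Pdx1 is low throughout 2838, and Foxa2 is at a similar level everywhere.

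The second question was whether knockout clones of line 2838 differed from its wild-type clones in the same way. Elf3 was the only gene of the 9 whose 6 knockout libraries were all on 1 side of all 6 wild-type libraries, and it was higher in the knockout clones. With the clone as the unit, KO17 and KO42 against WT15 and WT22, limma called 0 of the 9 genes, where 0.0763% of 11795 genes were called (0 of 9 and 0% of 11767 genes without WT22 replicate 3). At an unadjusted p under 0.05 it passed Elf3 alone, 1 of 9, where 5.61% of all genes passed. A second fit took the 12 libraries as the unit and compared single clones. It called 2 of the 9 in KO42 against the wild-type clones (14.2% of all genes) and 2 in KO17 against the wild-type clones (11.1%). None of the 9 was called in the same direction in all 4 pairs of a knockout and a wild-type clone, where 1.01% of all genes were, nor without WT22 replicate 3 (3.88%).

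Elf3 had 136, 137 and 138 TPM in KO17 and 133, 127 and 122 TPM in KO42, against 86.1, 64.1 and 83.3 TPM in WT15 and 111, 104 and 101 TPM in WT22. Such a separation upward was seen in 3.53% of genes tested. The log2 difference of clone means was 0.55 (SE 0.22, limma adjusted p = 0.807). It was 0.60 in KO17 (SE 0.10, limma adjusted p = 0.00359) and 0.49 in KO42 (SE 0.10, limma adjusted p = 0.00792), each against both wild-type clones. The wild-type clones also differed, with WT22 above WT15 in every library (log2 difference 0.44, limma adjusted p = 0.0959, and 0.47, adjusted p = 0.0327, without WT22 replicate 3). Against WT22 alone the differences were 0.38 in KO17 (adjusted p = 0.0844) and 0.27 in KO42 (adjusted p = 0.166). Without WT22 replicate 3, KO17 was called higher than WT22 (0.35, limma adjusted p = 0.0493), and KO42 was not (0.24, adjusted p = 0.137). The calls of KO17 and KO42 ended when each library was centred per chromosome (adjusted p = 0.178 for both), and that of KO42 also with median-of-ratios scaling (0.0575) and without KO42 replicate 1 (0.0544).

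The direction in 2838 was opposite to that in 1151. The change of Elf3 in 1151 less that in 2838 was -2.43 on the log2 scale (SE 0.35, limma adjusted p = 0.0916), from the 6 group means. With 18 libraries as the unit the adjusted p was 4.81e-10, which ignores that libraries of a clone belong together. No other gene of the 9 came as near to the threshold on group means: the next were Pdx1 (-1.30, adjusted p = 0.287) and Foxa3 (-1.26, adjusted p = 0.36). Of all genes 1.1% were called in that test, and 0 of the 9 were.

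Sox9 differed between clones of the same label. It had 5.14, 5.62 and 4.66 TPM in KO17 and 10.1, 9.99 and 9.03 TPM in KO42, against 15.9, 16.3 and 20.3 TPM in WT15 and 8.03, 7.70 and 3.34 TPM in WT22. KO17 was lower than the wild-type clones together (log2 difference -0.89, SE 0.22, limma adjusted p = 0.0248, and -1.06, adjusted p = 4.69e-05, without WT22 replicate 3). Over all libraries KO17 was below WT15 by a log2 of -1.59 (limma adjusted p = 0.00253) but did not pass against WT22 (-0.19, adjusted p = 0.684). Without WT22 replicate 3, KO17 was also called lower than WT22 (-0.53, limma adjusted p = 0.0143). All its libraries were then below all wild-type libraries. KO42 lay between WT22 and WT15 and did not pass (-0.09, SE 0.22, limma adjusted p = 0.838). Between wild-type clones, WT22 was lower than WT15 by a log2 of -1.40 (SE 0.25, limma adjusted p = 0.0177, and -1.05, adjusted p = 0.00145, without WT22 replicate 3). That was the only one of the 9 genes called between WT22 and WT15 over all libraries, where 1.92% of genes were. Without WT22 replicate 3, Sox9 and Elf3 were called (6.86%). The Sox9 calls of KO17 and of WT22 against WT15 missed the threshold without WT15 replicate 3 (adjusted p = 0.0571 and 0.0933) and without some other libraries.

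Hnf4a was the gene that WT22 replicate 3 touched most. It had 471, 527 and 457 TPM in KO17 and 331, 306 and 326 TPM in KO42, against 316, 482 and 534 TPM in WT15 and 556, 539 and 95.5 TPM in WT22. In that last library Hnf4a differed from the mean of the other WT22 libraries by -2.51 on the log2 scale, against a median of -0.57 over 9381 genes, and only 0.959% of these genes were lower still. Over all libraries KO42 did not pass against the wild-type clones (log2 difference -0.18, SE 0.45, limma adjusted p = 0.832). Without the library it was lower, by -0.60 (SE 0.14, limma adjusted p = 0.00698), although 1 WT15 library, at 316 TPM, lay within the KO42 range. KO17 did not pass against the wild-type clones either way (0.41, adjusted p = 0.633, and -0.01, adjusted p = 0.967, without the library). KO42 was below KO17 in all libraries, a log2 difference of -0.59 (SE 0.52, limma adjusted p = 0.518, and SE 0.16, adjusted p = 0.011, without WT22 replicate 3).

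The 3 FOXA genes behaved differently from each other. Foxa1 had 2.17, 1.93 and 1.54 TPM in KO17 and 5.31, 4.77 and 4.22 TPM in KO42, against 4.50, 3.00 and 4.27 TPM in WT15 and 2.78, 3.74 and 1.43 TPM in WT22. By their means the knockout clones thus lay on either side of the wild-type clones, and KO42 was higher than KO17 by a log2 of 1.00 (SE 0.24, limma adjusted p = 0.0156). Without WT22 replicate 3, KO17 was also below the wild-type clones (-0.66, limma adjusted p = 0.00705, against -0.53, adjusted p = 0.145, with it), and 3 of the 9 genes were then called in KO17, where 32% of all genes were. Foxa2 had 82.6, 87.3 and 81.9 TPM in KO17 and 80.1, 82.2 and 83.6 TPM in KO42, against 87.6, 85.0 and 87.6 TPM in WT15 and 82.8, 89.5 and 63.1 TPM in WT22, with no call in any of these comparisons, with or without WT22 replicate 3. Foxa3 had 8.09, 8.91 and 9.48 TPM in KO17 and 7.55, 5.98 and 5.35 TPM in KO42, against 7.61, 7.76 and 8.86 TPM in WT15 and 6.55, 8.05 and 4.77 TPM in WT22. It was not called over all libraries, but was lower in KO42 than in KO17 with median-of-ratios scaling (-0.43, limma adjusted p = 0.0419), with quantile normalization (-0.45, adjusted p = 0.0463) and without WT22 replicate 3 (-0.44, adjusted p = 0.0224).

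Pdx1 was low in every 2838 library. It had 1.68, 1.83 and 1.32 TPM in KO17 and 2.80, 2.31 and 1.93 TPM in KO42, against 1.06, 1.03 and 1.72 TPM in WT15 and 1.29, 1.36 and 1.39 TPM in WT22. KO42 was above all wild-type libraries and was called (log2 difference 0.54, SE 0.16, limma adjusted p = 0.0403, and 0.0195 without WT22 replicate 3). That call ended in 10 of 12 fits with 1 library left out (adjusted p up to 0.195). It also ended in 5 of 8 other settings (adjusted p up to 0.354). Klf5 had 42.3, 53.6 and 46.7 TPM in KO17 and 59.4, 59.8 and 49.9 TPM in KO42, against 40.6, 42.1 and 47.2 TPM in WT15 and 50.1, 47.0 and 24.2 TPM in WT22. Gata6 had 27.5, 29.2 and 24.6 TPM in KO17 and 34.0, 37.2 and 31.4 TPM in KO42, against 28.3, 29.4 and 31.9 TPM in WT15 and 24.6, 24.9 and 13.2 TPM in WT22. Neither was called against the wild-type clones over all libraries, but both were called higher in KO42 with median-of-ratios scaling (limma adjusted p = 0.031 for Klf5 and 0.0145 for Gata6) and with quantile normalization (0.0335 and 0.00953). Without WT22 replicate 3 both were higher in KO42 (Klf5 0.29, limma adjusted p = 0.0332, and Gata6 0.32, adjusted p = 0.0106), where 37% of all genes were then called and 5 of the 9.

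Clones 42 and 17 carry the same label. Over all libraries 2 of the 9 genes, Foxa1 and Sox9, were called between KO42 and KO17, where 17.2% of all genes were, and both were higher in KO42. The Sox9 difference was 0.80 (SE 0.25, limma adjusted p = 0.0499). It missed the threshold in 9 of 12 fits with 1 library left out (adjusted p up to 0.148). It also missed it in 4 of 9 other settings, such as a pseudocount of 0.1 (adjusted p = 0.055) and no filter (0.086). The Foxa1 call ended without KO17 replicate 3 (adjusted p = 0.066), among others. Without WT22 replicate 3 there were 5 calls in 9 and 41.5% of all genes, with Foxa1, Sox9 and Gata6 higher in KO42 and Hnf4a and Foxa3 lower.

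**Figure D2:**
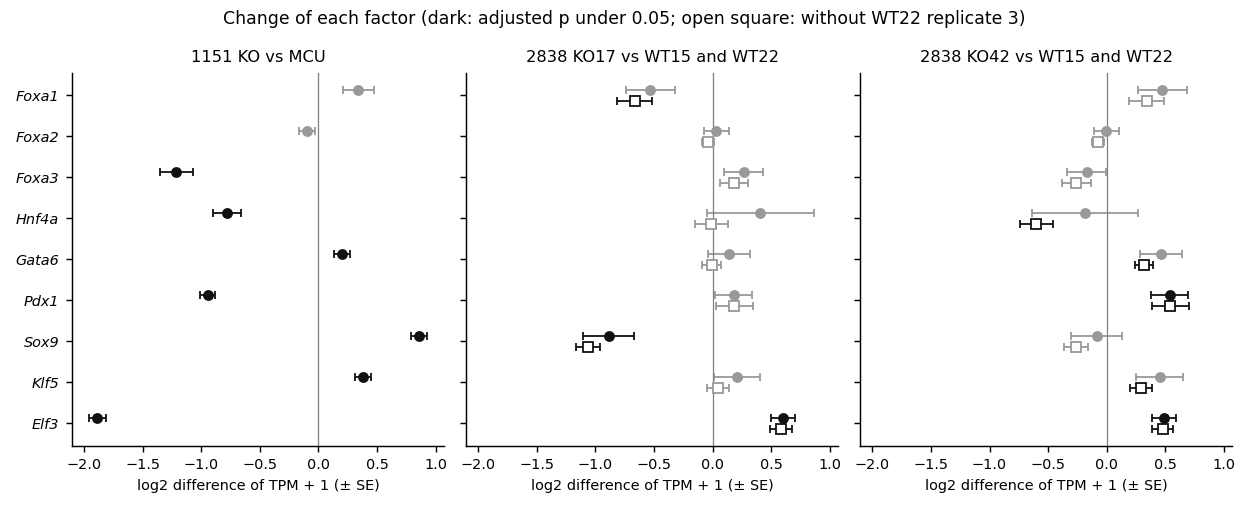
Log2 difference of TPM + 1 (x axis, with SE) for each factor (y axis) in 1151 KO against MCU and in KO17 and KO42 against the wild-type clones; dark symbols passed an adjusted p under 0.05, and open squares leave out WT22 replicate 3. Elf3 is at -1.89 in 1151 and at 0.60 and 0.49 in the knockout clones of 2838.

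Side by side, the lines differed in level more than the groups within a line for some of the factors, and these levels were not tested. Pdx1 ran from 21.2 to 43.8 TPM in 1151 and from 1.03 to 2.80 TPM in 2838, a span of 42.5-fold from the lowest to the highest library. Elf3 spanned 21.7-fold, from 6.35 TPM in 1151 KO to 138 TPM in KO17, and in order of level its group ranges were KO17, KO42, WT22, WT15, 1151 MCU and 1151 KO, with no overlap between neighbours. For Sox9 the order was 1151 KO, WT15, 1151 MCU, KO42, WT22 and KO17, and only WT22 and KO17 overlapped, through WT22 replicate 3 (3.34 TPM). Hnf4a was lowest in 1151 KO, the only group apart from its neighbour in rank. Gata6 and Klf5, at 2.94-fold and 2.47-fold from lowest to highest library, overlapped between all neighbouring groups, as did Foxa2 at 1.42-fold. WT22 replicate 3 is included in these levels. It was the lowest library for Gata6 (13.2 TPM), Klf5 (24.2 TPM), Foxa2 (63.1 TPM), Hnf4a and Sox9, so their spans, orders and overlaps rest partly on it. Foxa3 was apart from its neighbour only between 1151 MCU and 1151 KO. Foxa1 was highest in KO42 and lowest in 1151 MCU, with ranges apart only among its 3 lowest groups, KO17, 1151 KO and 1151 MCU.

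The make-up of the families these genes belong to differed between the groups of 1151. Foxa2 supplied 96.2 ± 0.37% of the summed FOXA TPM in 1151 KO and 93.2 ± 0.211% in 1151 MCU (SD, n = 3 each), and between 87.9% and 89.8% on average in the 2838 groups. Gata6 supplied 87.2 ± 1.11% of Gata4, Gata5 and Gata6 TPM in 1151 KO and 59.2 ± 2.55% in 1151 MCU, with no overlap. In 2838 it supplied 20.3 ± 0.898% in KO17 and 28.5 ± 1.05% in KO42, against 29.6 ± 2.13% in WT15 and 19.1 ± 2.14% in WT22, since Gata5, at 38.5 to 56.2 TPM on average, and Gata4 were high there. Behind the shift in 1151 lay Gata4, which fell to 2.61 ± 0.757 TPM in KO, against 18.5 ± 1.34 TPM in MCU (log2 difference -2.45, SE 0.16, limma adjusted p = 2.67e-05).

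**Figure D3:**
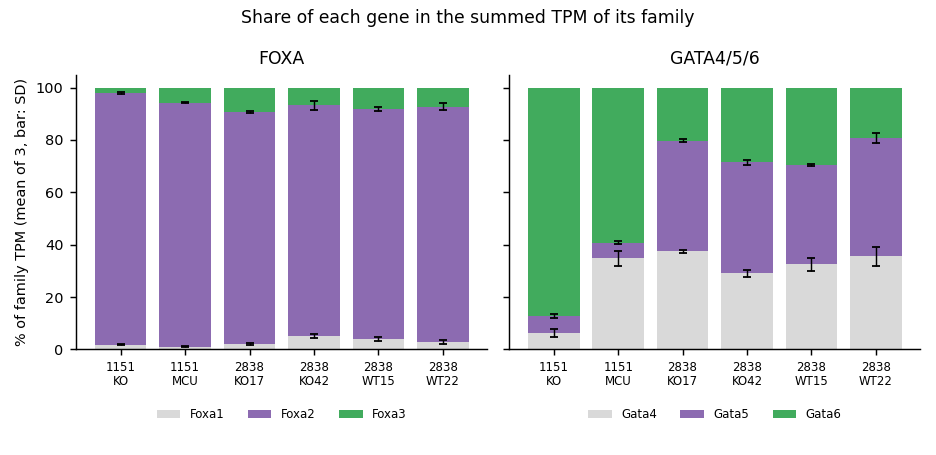
Mean share (y axis, percent) of each gene in the summed TPM of the FOXA and GATA4/5/6 families in the 6 groups (x axis); each error bar is the SD over 3 libraries of the share of the gene below it. Gata6 takes 87.2% in 1151 KO and 59.2% in 1151 MCU.

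Of 31 close relatives of the 9 genes, 16 could be tested in 1151, and 8 were higher and 3 lower in KO, where 34% and 27% of all genes were (median log2 difference 0.32, against 0.05 over all genes tested). The 8 became 5 without KO replicate 1, without KO replicate 2 and with the spread of 18 libraries. Klf4, a zinc-finger factor of differentiating epithelium and a relative of Klf5, had 22.3 ± 1.57 TPM in 1151 KO and 73.2 ± 0.824 TPM in 1151 MCU (log2 difference -1.67, SE 0.065, limma adjusted p = 3.04e-06). It thus moved opposite to Klf5. Klf10, a factor induced by TGF-beta, was higher in KO (0.80, limma adjusted p = 5.86e-05). Gata2, a blood and vessel factor, had 5.09 ± 0.897 TPM in KO and 0.174 ± 0.171 TPM in MCU and was called higher (2.37, limma adjusted p = 2.92e-05), having entered the test through the KO libraries alone. Cdx2, the intestinal relative of Pdx1 and named after its values were seen, had 21.2 ± 0.494 TPM in KO and 15.4 ± 0.493 TPM in MCU (0.43, limma adjusted p = 0.000846), and 0.121 to 0.73 TPM on average in the 2838 groups. Like Pdx1, it was thus far lower in 2838, but in 1151 it moved the other way. In 2838 none of the 15 relatives tested was called in all 4 pairs, and the most abundant were Klf4 and Klf6. Klf4 had 174 ± 6.51 TPM in KO17 and 156 ± 2.62 TPM in KO42, against 94.0 ± 14.9 TPM in WT15 and 113 ± 33.3 TPM in WT22. All knockout libraries lay above all wild-type libraries, opposite to 1151 and as for Elf3. It was called higher in KO17 (0.78, limma adjusted p = 0.0151) and in KO42 (0.62, adjusted p = 0.0338), each against both wild-type clones, but not on clone means (0.70, adjusted p = 0.561). Klf6 had a clone-mean difference of 0.33 (adjusted p = 0.999).

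Among 32 factors of foregut, duct and gut, 18 were tested in 1151, with 5 higher and 8 lower (median -0.18), where 34% and 27% of all genes were. Of the 32, 6 are also among the relatives above, so Cdx2 (higher), Gata4 and Klf4 (both lower) are counted in both lists. Tfcp2l1, a grainyhead-related factor of ductal and renal epithelium, had 1.83 ± 0.143 TPM in 1151 KO and 26.0 ± 1.85 TPM in 1151 MCU (log2 difference -3.26, SE 0.087, limma adjusted p = 6.2e-07). Onecut3, of the HNF6 family of liver and pancreas factors, was lower too (-2.40, limma adjusted p = 6.62e-06) but reached 1 TPM only in the MCU libraries. None of the 15 tested in 2838 was called in all 4 pairs, and 2 were lower in all 4 without WT22 replicate 3. The most abundant there were Klf4 and Sox4, and Sox4, a progenitor factor related to Sox9, had a clone-mean difference of -0.40 (limma adjusted p = 0.999). Of 13 acinar and endocrine factors, 0 passed the filter in either line, and the highest on average were Mafa, at 0.258 to 0.651 TPM in every group, and Insm1, at 1.16 ± 0.271 TPM in 1151 MCU.

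Lists of genes that these factors regulate or accompany were counted in the same fits. Of 31 genes of classical tumours and gastric epithelium, 30 were in the table and 15 were tested in 1151. Of these 14 were lower in KO and 0 higher, where 27% and 34% of all genes were, and the median log2 difference was -2.42. As 6 of the 15 reached 1 TPM only in the MCU libraries, they could only be lower. Among the 9 above 1 TPM in both groups, 8 were lower (median -1.94). The count of 14 likewise became 8 without any 1 of the MCU libraries, when those 6 genes no longer passed the filter. Tff1, a trefoil peptide of gastric mucus, had 0.411 ± 0.356 TPM in 1151 KO and 4261 ± 132 TPM in 1151 MCU, and Tff2 and Tff3 were listed at 0 in all KO libraries, against 513 ± 27.1 and 244 ± 34.3 TPM in MCU. Ctse, the gastric protease cathepsin E, had 5.75 ± 0.394 TPM in KO and 141 ± 7.32 TPM in MCU (log2 difference -4.39, limma adjusted p = 1.47e-07).

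In 2838, 3 of 15 tested genes of the classical list were higher in all 4 pairs and 0 lower, where 0.492% and 0.517% of all genes were. They were Tff1, with 821 ± 5.26 TPM in KO17 and 444 ± 30.1 TPM in KO42, against 194 ± 46.7 TPM in WT15 and 246 ± 69.6 TPM in WT22, Lgals4, a gut galectin, and Ctse. Their clone-mean differences were 1.49, 1.48 and 0.87 (limma adjusted p = 0.165, 0.18 and 0.485). Without WT22 replicate 3, 4 genes of the list were higher in all 4 pairs and 0 lower, with 3.88% of all genes called either way. Like Tff1, Lgals4 and Ctse, Elf3 was lower in 1151 KO and higher in both knockout clones of 2838. Whether Elf3 takes part in these differences was not tested.

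Of 21 genes of differentiated liver and gut epithelium, 8 were tested in 1151. In KO 3 were higher and 5 lower (median -1.65), where 34% and 27% of all genes were. Of the 5 above 1 TPM in both groups 2 were higher and 3 lower (median -1.06). The 5 lower became 3 without any 1 of the MCU libraries and with a mean of at least 5 TPM, and 9 with no filter. Vil1 and Cdhr2, brush border genes, had log2 differences of -2.85 and -2.47. Apob, the lipoprotein scaffold, was higher, at 43.5 ± 0.697 TPM in KO, against 2.30 ± 0.370 TPM in MCU. The limma adjusted p was at most 4.55e-06 for these 3 genes. Ttr, the thyroxine carrier transthyretin, had 0.432 ± 0.21 TPM in KO and 5.78 ± 0.565 TPM in MCU, and having passed the filter through the MCU libraries alone it could only be lower. In 2838, where 0.517% of all genes were lower in all 4 pairs and 0.492% higher, 4 of 10 were lower and 0 higher. Of these, Gc reached 1 TPM in 0 of the 6 knockout libraries and Hp in 2, at up to 1.71 TPM, so that they passed the filter mainly through the wild-type libraries and Gc could only be lower. The 4 genes encode plasma proteins: Trf (transferrin, clone-mean difference -2.70), Hp (haptoglobin, -2.50), Gc (vitamin D binding protein, -2.37) and Rbp4 (retinol carrier, -1.75), with limma adjusted p between 0.0514 and 0.204. Rbp4 was also lower in 1151 KO, at 394 ± 36.8 TPM, against 819 ± 10.9 TPM in MCU, whereas Trf was higher there, at 31.3 ± 0.861 TPM, against 14.2 ± 0.856 TPM. Both were looked up after the 2838 values were seen. Without WT22 replicate 3, 4 genes of this list were again lower and 0 higher in all 4 pairs, with 3.88% of all genes called either way. In 2838 Hnf4a itself was not called on clone means.

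Of 16 duct and simple epithelium genes, 12 were tested in 1151, with 4 higher and 5 lower (median -0.21), where 34% and 27% of all genes were. Aqp1, a water channel, had 3.13 ± 0.255 TPM in KO and 182 ± 4.14 TPM in MCU (log2 difference -5.47, limma adjusted p = 3.67e-08), and Prom1, a membrane protein of ducts, also fell (-3.00, adjusted p = 4.01e-05). The keratins split, with Krt19 lower (-1.10, adjusted p = 8.94e-06) and Krt7 higher (2.55, adjusted p = 8.6e-05). In 2838, Krt7 was higher and Spp1, the matrix protein osteopontin, lower in all 4 pairs (clone-mean differences 0.95 and -0.98). That was 1 of 13 tested genes in each direction, where 0.492% of all genes were higher and 0.517% lower. Without WT22 replicate 3, 2 were higher and 1 lower in all 4 pairs, with 3.88% of all genes called either way. Of 11 mesenchymal and squamous factors, 7 were tested in 1151, with 6 higher and 1 lower (median 0.97), where 34% and 27% of all genes were. The squamous factor Trp63, named after its values were seen, averaged at most 0.0461 TPM in any group. It was not tested, so these counts say nothing about it. Of the 5 above 1 TPM in both groups 4 were higher and 1 lower (median 0.90). The 6 higher became 1 among genes with a mean of at least 5 TPM and 4 without any 1 of the KO libraries. The 1 lower, Hmga2, became 0 without KO replicate 2, MCU replicate 2 or MCU replicate 3 and with the spread of 18 libraries. Zeb2, Snai2 and Zeb1, which repress epithelial genes, had log2 differences of 1.02, 0.90 and 0.67, and the chromatin protein Hmga2 was lower (-0.27, limma adjusted p = 0.0242). In 2838 none of 4 was called in all 4 pairs, 1 was lower in all 4 without WT22 replicate 3, and Hmga2 and Zeb1, the most abundant, had clone-mean differences of -0.72 (limma adjusted p = 0.521) and 0.01 (0.999).

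**Figure D4:**
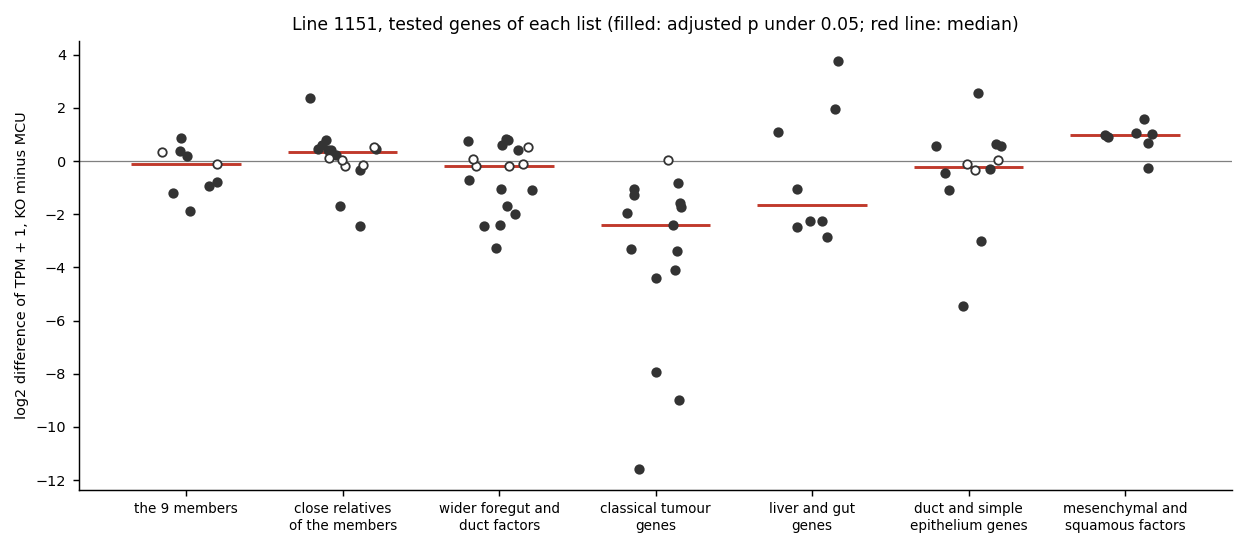
Log2 difference of TPM + 1 between 1151 KO and MCU (y axis) for the tested genes of each list (x axis); filled points passed an adjusted p under 0.05 and the red line is the median. The median is -0.10 for the 9 factors, -2.42 for classical tumour genes and 0.97 for the list of mesenchymal and squamous factors. In that last list the squamous factor Trp63 was too low to be tested.

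Most markers of other cell types were under 1 TPM. Of the 7 immune markers 6 were under 1 TPM in all libraries, with Cd68 at 1.88 ± 0.46 TPM in 1151 KO and 1.37 ± 0.178 TPM in 1151 MCU (limma adjusted p = 0.141) and 3.51 to 5.71 TPM on average in 2838. Kdr, an endothelial receptor, had 8.51 ± 0.239 TPM in 1151 KO and 0.767 ± 0.0793 TPM in 1151 MCU, while Cdh5, an endothelial cadherin, had 0.00568 ± 0.00983 TPM in KO and 4.93 ± 0.345 TPM in MCU. The other 3 of 5 endothelial markers were under 1 TPM in all libraries. Cela1 was the sole acinar marker of 6 above 1 TPM, at 12.6 ± 1.08 TPM in KO17 and 10.7 ± 1.52 TPM in KO42, against 24.2 ± 4.02 TPM in WT15 and 19.9 ± 4.01 TPM in WT22. The part of these genes in the results above was not tested.

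For each factor the genes with the most similar profile were sought by Pearson correlation of log2(TPM + 1) over all 18 libraries, among 10144 genes (10145 for Foxa1) that averaged 5 TPM or more in some group. These values are descriptions, since the libraries fall into 6 groups and 2 lines. WT22 replicate 3 is included, and correlations can turn on it. Within 2838, Hnf4a and Gata6 correlated at 0.61 with that library and at -0.64 without it. For Elf3 the most similar genes were Mgst2, Fdps and Tjp3 (r from 0.987 to 0.99), for Pdx1 Rbpj-ps3, Evc and Prdx4 (all 0.991), and for Sox9 Map4k3, Tgfb3 and Antxr1 (0.956 to 0.976). For Hnf4a they were Dab2ip, Ptgfrn and Fermt1 (0.961 to 0.974), for Foxa3 Fam149a, Ugt2b34 and Dyrk1b (0.965 to 0.971), and for Klf5 they included Ids and Epb41l2 (both 0.955). Gata6 was nearest to Usp12, Cdk19 and Tmf1 (0.936 to 0.938), Foxa1 to Tnxb, Id2 and Chst11 (0.935 to 0.938), and Foxa2 to Ncoa4, Tmppe and Garem1 (0.884 to 0.917). Prdx4, a peroxiredoxin of the endoplasmic reticulum, was one whose profile differed mainly between lines: it had 54.0 TPM in 1151 KO and 102 TPM in 1151 MCU on average, and at most 0.178 TPM on average in a 2838 group.

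In the mm10 annotation of GENCODE the genes lie on 8 chromosomes, with only Hnf4a (chromosome 2, 163506808 to 163572910, plus strand) and Foxa2 (chromosome 2, 148042877 to 148046969, minus strand) sharing 1. Elf3 lies on chromosome 1 (135253575 to 135258568, minus strand), Pdx1 on chromosome 5 (147269959 to 147275848, plus strand), Foxa3 on chromosome 7 (19013284 to 19023538, minus strand), Sox9 on chromosome 11 (112782224 to 112787760, plus strand), Foxa1 on chromosome 12 (57540628 to 57546916, minus strand) and Klf5 on chromosome 14 (99298691 to 99315036, plus strand). Hnf4a, Pdx1, Elf3 and Gata6 each overlap an annotated RNA gene on the opposite strand (Hnf4aos, Plut, Gm26642 and 1010001N08Rik). The overlap is of whole gene spans, introns included, and none of these RNA genes had a row in the expression table. The sources used here do not say whether quantification used strand, so whether reads of such a pair were told apart is not known. Foxa1 and Foxa2 share 0.243% and 0.338% of their 31-base stretches with other genes, and the highest such share among the 9 was 1.91%, for Klf5.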

How the data were processed

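Messenger RNA of 18 libraries was sequenced, and the authors deposited 1 table of TPM with 35642 gene symbols. TPM were made with Salmon, and mm10 and DESeq2 are named as well, per the submitters' processing notes. Versions, annotation and strand setting are not given in the sources used here. TPM sum to between 998353 and 998961 per library, so read depth is unknown and no counting interval or floor is given.

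Linear models with a variance trend were fitted to log2(TPM + 1) of the deposited values (R 4.3.3, limma 3.58.1). Genes needed at least 1 TPM in at least 3 libraries of the fit, and p-values were Benjamini-Hochberg adjusted over all genes tested. Line 1151 was fitted on its 6 libraries, clone means of line 2838 as 2 against 2, single clones on 12 libraries, and the difference between lines on 6 group means. The script was tested on simulated data. Sample groups came from the labels.

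The 9 genes and all lists were chosen with earlier results of these data known. Besides the 9, the text names per list up to 4 genes called in 1151 and up to 4 called in all 4 clone pairs, by size of change among those that averaged 5 TPM or more in the higher group, or the 2 most abundant where none was called, and per factor the 3 genes most alike (some genes the rule names are not reported here). Genes outside that rule are said to be so, as are the markers of other cell types above 1 TPM (Cd68, Kdr, Cdh5, Cela1) and the epithelial genes Krt8, Cdh1 and Epcam, which were chosen after their values were seen. Promoter bases are from RefSeq (GRCm38.p6), where 6 of the 9 genes were matched by symbol, and gene positions from GENCODE. Alternatives were another pseudocount, filters, scalings, no trend, centring per chromosome, a replicate block, and leaving out libraries or clones.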

Additional observations from a re-analysis of the deposited data

Results flagged for a closer look

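Elf3 changed in opposite directions in the lines. It was lower in every 1151 KO library than in every 1151 MCU library, and higher in every library of KO17 and KO42 than in every library of WT15 and WT22. The change in 1151 less that in 2838 was -2.43 on the log2 scale (6 group means, SE 0.35, limma adjusted p = 0.0916), and -2.42 (adjusted p = 0.0896) without WT22 replicate 3. With 18 libraries as the unit the adjusted p was 4.81e-10. The lines also differ in batch, in how Mcu was removed and in what the control carries, and these cannot be told apart.

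Other genes named above were put to the same test on group means, as the change in 1151 less that in 2838. Those given here passed it, as 1.1% of all genes did, or had libraries apart in opposite directions in the lines. How many of all genes had that arrangement was not counted. Klf4 (-2.38, SE 0.26, limma adjusted p = 0.0593), Tff1 (-13.09, SE 0.61, adjusted p = 0.0337), Ctse (-5.26, SE 0.41, adjusted p = 0.0363) and Lgals4 (-3.91, SE 0.65, adjusted p = 0.119) were, like Elf3, lower in all KO than in all MCU libraries of 1151 and higher in all knockout than in all wild-type libraries of 2838. Trf (3.79, SE 0.92, adjusted p = 0.222) and Cdx2 (0.95, SE 0.28, adjusted p = 0.286) had the opposite arrangement, but Cdx2 averaged only 0.121 to 0.73 TPM in the 2838 groups. Kdr (2.41, SE 0.22, adjusted p = 0.0447) and Cdh5 (-2.56, SE 0.17, adjusted p = 0.0355) passed the test while their 2838 groups overlapped. Both were almost absent in 2838, at most 0.104 TPM for Kdr and 0.00605 TPM for Cdh5 on average in a group. They entered the test only through 1151 libraries, Kdr through KO and Cdh5 through MCU. Their result is thus the difference within 1151 alone.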

How the results depend on the processing

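A tally took all factors in 1151 and on clone means of 2838, and in other comparisons only factors called under some setting. Of these values under all alternatives, 681 kept their direction and side of the threshold, 54 lost a call, 24 gained one and 26 changed sign. The cause was not tested. In 1151 the count of 7 called factors became 4 with the spread of 18 libraries. On clone means of 2838 the count of 0 became 1, Elf3, with 12 libraries as the unit. For KO42 against the wild-type clones the count of 2 became 1 with a pseudocount of 0.1, a mean of at least 5 TPM or the replicate block, and 0 with centring per chromosome. For KO42 against KO17 the count of 2 became 1 with a pseudocount of 0.1, no filter or the replicate block, 0 with a mean of at least 5 TPM, and 4 with quantile normalization. The 0 calls of the difference between lines became 4 with 18 libraries as the unit. Leaving out 1 library gave 0 to 5 calls for KO42, 1 to 3 for KO17, 0 to 5 for KO42 against KO17 and 0 to 2 for WT22 against WT15, with both upper ends of 5, and those of 3 and 2, reached without WT22 replicate 3.

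All changes of sign in the tally above were in values that were not called. Values outside it also changed sign without WT22 replicate 3, among them Hnf4a (-0.50 to 0.34) and Klf5 (-0.16 to 0.16) in WT22 against WT15. In KO17 against the wild-type clones, Hnf4a went from 0.41 to -0.01 and Gata6 from 0.14 to -0.0059. On clone means, Hnf4a (0.11) became -0.18 without clone 17 and -0.14 without clone 22, and ran from -0.31 to 0.33 with 1 library left out. Foxa1 (-0.03) became 0.47 without clone 17 and 0.21 without clone 15, and ran from -0.16 to 0.080. Foxa2 (0.02) became -0.056 with median-of-ratios scaling, -0.064 with quantile normalization and without clone 22, and -0.0017 without clone 17, and ran from -0.059 to 0.066. Foxa3 (0.05) became -0.013 with median-of-ratios scaling, -0.035 with quantile normalization, -0.073 with centring per chromosome, -0.17 without clone 17 and -0.10 without clone 22, and ran from -0.039 to 0.12. Sox9 became 0.21 without clone 15. Hnf4a in KO42 against the wild-type clones became 0.050 with centring per chromosome and ran from -0.60 to 0.031.

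Whether replicate numbers mark shared days or batches is not said by any label. Deviations of same-numbered libraries from their group means correlated at -0.157 to -0.0214 in 1151 and at -0.228 to 0.27 in 2838. Those of differently numbered libraries correlated at -0.145 to 0.18 and at -0.256 to 0.186. With the replicate block, the calls lost among the factors were Pdx1 in KO42 against the wild-type clones (adjusted p = 0.0749) and Sox9 between KO42 and KO17 (0.0638), and Hmga2 was no longer called in 1151. Over all genes, 7098 calls in 1151 became 4637 with the spread of 18 libraries. Calls of 1675 in KO42 became 4357 without WT22 replicate 3, those of 1309 in KO17 became 3769, and those of 2031 between KO42 and KO17 became 4887. Between WT22 and WT15 the median of all genes was -0.16, and -0.0023 with median-of-ratios scaling. The depth of the libraries is not known, so the counting error of low genes, such as Foxa1 and, in 2838, Pdx1, cannot be given.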
